A study of Mus musculus with 18 samples.

Results

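CTCF binding was examined at the mouse zinc finger protein genes whose RefSeq symbol is Zfp followed by digits alone. A region was taken when any of its summits, the positions of highest signal, lay inside such a protein-coding gene or within 10 kb of it, and 2 further symbols were left out by the rule. The rule gave 365 genes of 21887 protein-coding ones. At these genes lay 806 of 71075 CTCF regions in wild-type cells (WT), 689 of 62238 in TKO cells and 653 of 59372 in SKO cells. Genes with another Zfp gene within 100 kb were called clustered (211 genes in 52 clusters, 90 of the 365 genes being on chromosome 7) and the other 154 single. Clustering was read from Zfp symbols alone, so a single gene can still have zinc finger neighbours under other names.

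The cells were mouse embryonic stem cells grown with LIF in serum replacement medium on irradiated mouse embryonic fibroblasts, so chromatin of the feeder cells can be in the lysates. TKO cells lack Tet1, Tet2 and Tet3. SKO cells lack those genes and also Dnmt1, Dnmt3a and Dnmt3b. The series has 18 samples in 6 groups, 3 anti-CTCF and 3 input replicates per genotype, and the replicates were pooled into 1 peak list per genotype. No spread between replicates can therefore be given and no p-value was computed. Each knockout is set against WT as a separate line, so loss of the enzymes and other differences between the lines cannot be told apart. The peak lists hold no expression values with which to check the cell type against its markers.

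Many proteins under Zfp symbols read DNA through repeated C2H2 fingers, though some named below act on RNA, ribosomes or ubiquitin. Many of the C2H2 proteins carry a KRAB domain that recruits the corepressor Trim28 and, with it, histone methylation and DNA methylation. Their genes multiplied by tandem duplication, which is why many lie in clusters, and many of the proteins silence transposable elements in embryonic stem cells. CTCF is itself a C2H2 zinc finger protein that, with cohesin, marks the borders of chromatin loops. Methylation of a CpG in its recognition sequence hinders its binding at part of its sites, TET enzymes oxidise methylated cytosine, and DNMT enzymes put the methyl group on.

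Promoters that hold both a WT summit and the CTCF core are shown here, because they let the letters be read beside the listed regions. RefSeq promoters (GRCm38.p6, 250 bases before to 50 after a start) were available for 303 of the 365 genes. In 34 of 365 such promoters (9.32%) a WT summit lay inside the window, and 5 of those 34 held the CTCF core CCNNNAGGNGGC on either strand. The sequences below are 120 bases of those 5 promoters, written in the direction of the gene, with the core in capitals. In Zfp341 and Zfp638 the core lies on the other strand, so its reverse complement is in capitals.

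Zfp341, chr2:154613233-154613352, plus strand: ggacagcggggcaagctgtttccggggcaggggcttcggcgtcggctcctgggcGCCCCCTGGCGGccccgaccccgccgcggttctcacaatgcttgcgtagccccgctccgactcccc
Zfp786, chr6:47830530-47830649, minus strand: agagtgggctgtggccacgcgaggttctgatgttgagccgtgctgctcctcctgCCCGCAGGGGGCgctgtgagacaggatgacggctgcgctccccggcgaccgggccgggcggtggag
Zfp398, chr6:47835543-47835662, plus strand: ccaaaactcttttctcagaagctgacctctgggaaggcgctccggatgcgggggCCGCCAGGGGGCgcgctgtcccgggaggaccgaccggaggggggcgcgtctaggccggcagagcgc
Zfp638, chr6:83914217-83914336, plus strand: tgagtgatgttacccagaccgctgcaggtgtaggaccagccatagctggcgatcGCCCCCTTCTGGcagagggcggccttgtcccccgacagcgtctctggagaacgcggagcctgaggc
Zfp558, chr9:18473652-18473771, minus strand: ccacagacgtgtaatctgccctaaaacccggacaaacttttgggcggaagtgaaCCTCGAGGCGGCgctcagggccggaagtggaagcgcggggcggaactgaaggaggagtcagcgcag

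All 5 of these promoters had a summit inside the window in the WT, TKO and SKO lists. Within its own letters the core of Zfp638, whose protein binds RNA, holds no CpG. Its region, the strongest of the 5, had a fold enrichment (ChIP pileup over local background at the summit, the authors' value in each list) of 48.0 in WT, 46.8 in TKO and 42.9 in SKO. The cores of Zfp341, Zfp786 and Zfp398 hold 1 CpG each and that of Zfp558 holds 2. These counts leave out the CpG that the last C of the core makes with the next base, which is there in all 5. Zfp786 read 25.1, 17.9 and 27.3 in WT, TKO and SKO, and its neighbour Zfp398, transcribed away from it, read 18.5, 21.9 and 24.7. Zfp341 read 12.2, 15.3 and 11.0. Zfp558 had the lowest folds of the 5, at 6.88, 3.95 and 5.34, and its core centre lay 153 bp from the WT summit, against 6 bp in Zfp638, 45 bp in Zfp786 and Zfp398 and 62 bp in Zfp341.

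Over all Zfp promoters the core stood in 18 of 365 (4.93%), against 4.11% of other promoters of the same length. It was in 5 of clustered genes' 202 promoters (2.48%) and in 13 of single genes' 163 (7.98%). Among promoters with a WT summit the core stood in 14.7% at Zfp genes (5 of 34) and in 21.6% at other genes (327 of 1515). The shorter AGGGGGC, which can overlap the core, stood in 20.6% and 29.2% of them, and AGGTGGC in 5.88% (2 of 34) and 12.2%. A match describes letters and does not show that the site is bound.

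Zfp genes held more CTCF regions per 100 kb of gene and window than other protein-coding genes, and clustered ones had a lower mean per gene. Counted per 100 kb of gene and window, the WT list had 4.56 regions at Zfp genes (4.25 to 4.89, exact 95% Poisson interval), 4.70 at clustered and 4.45 at single ones, against 3.74 at other protein-coding genes and 1.13 at olfactory receptor genes, another family that grew in clusters. Other zinc finger families were about as dense or denser, with 4.51 at Zbtb, 4.34 at Klf, 5.08 at Zkscan and 7.52 at Zscan genes. WT regions per gene averaged 2.41 at Zfp genes, 2.09 at clustered and 2.84 at single ones, against 2.84 at other genes. The median was 2.00 in each of these groups. Per 100 kb, TKO had 3.90 regions at Zfp genes and 3.32 at other genes, and SKO 3.70 and 3.17. Gene and window covered 17.7 Mb for the 365 Zfp genes and 1274 Mb for 21522 others, and the part of gene length was not tested. From 10 to 1 kb upstream, WT summits per 100 kb were 4.82 at clustered, 5.33 at single and 5.67 at other genes. Downstream they were 6.47, 6.80 and 6.08. No WT region was found at 65 of the 365 Zfp genes (17.8%), against 21.5% of other genes, and 53 Zfp genes had none in any list. The density was spread unevenly, since clusters ranged from 0.921 to 18.6 WT regions per 100 kb of their span, with a median of 3.70.

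Regions at Zfp genes had a lower median fold than the list as a whole. Their median fold was 8.49 in WT, 8.22 at clustered and 9.11 at single genes, against 10.0 over all WT regions. In TKO the median was 8.97 against 9.84, and in SKO 9.33 against 10.5. With the WT list divided by −log10 q into 10 bins of equal size, the weakest bin held 13.8% of Zfp regions and the strongest 10.3%. By kind, the weakest bin held 13.9% of clustered and 13.7% of single regions, and the strongest 8.42% and 11.9%. Of the 806 WT regions, 440 (54.6%) had a summit inside a Zfp gene, 215 (26.7%) lay also in or near another protein-coding gene, and 89 (11.0%) lay within 1 kb of an annotated Zfp start. At the edge of the window, regions of 9.99 kb distance at Zfp384 (fold 5.24) and Zfp536 (9.02) were taken, and those at Zfp600 (10.08 kb, fold 12.7) and Zfp235 (10.22 kb, 14.7) were not. The widest gap within a cluster was 97.8 kb, between Zfp932 and Zfp605, and the narrowest gap left out was 104.4 kb, between Zfp936 and Zfp715.

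The strongest regions were in all 3 lists. Zfp286, a clustered gene on chromosome 11, had the highest WT fold, 61.6, with 41.2 in TKO and 33.7 in SKO, at a ChIP pileup (fragments over the summit) of 268, 235 and 190 (chr11:62756663-62757362, inside the gene). The region inside Zfp131 on chromosome 13 read 61.3, 45.7 and 43.3. Zfp384, which encodes a transcription factor, went the other way in fold alone, from 52.2 in WT to 60.1 in TKO and 69.8 in SKO (chr6:125030484-125031028). Its pileup was 410, 381 and 362, lower in both knockouts as at Zfp286. The local background at Zfp384 was also lower in both knockouts than in WT (6.87). The region beside Zfp90 on chromosome 8 read 49.4, 54.8 and 41.7. The region 5.76 kb from Zfp658 (chr7:43556216-43556602) read 44.7 in WT, 19.1 in TKO and 25.3 in SKO, and its local background was 4.84, 7.17 and 4.61. Folds of separate lists rest on separate depths, so these values stand side by side and no change is read from them.

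Without the TET enzymes, 184 of the 806 WT regions at Zfp genes had no overlapping region in the TKO list, 22.8% (95% Wilson interval 20.1 to 25.9, counting error only). The share over all WT regions was 19.0%, and at other protein-coding genes 18.0%. Weak regions go missing more often, and the strength of the Zfp regions alone, read from the share missing in each of the 10 bins of the whole list, gave 22.5%. The members were therefore missing about as often as regions of like strength. Clustered genes were missing 86 of 368 regions (23.4%, 19.3 to 28.0, with 23.6% from strength) and single genes 98 of 438 (22.4%, 18.7 to 26.5, with 21.5%). The difference between the kinds was 0.995 percentage points (Newcombe interval −4.78 to 6.86).

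With the methyltransferases gone as well, 207 of the 806 WT regions were missing from the SKO list, 25.7% (22.8 to 28.8), against 21.9% over all WT regions and 25.8% from strength. Clustered genes were missing 96 regions (26.1%, with 27.1% from strength) and single genes 111 (25.3%, with 24.6%), a difference of 0.744 points (−5.27 to 6.83). The lists differ in the lowest background, 1.76 fragments over a position in WT, 1.82 in TKO and 1.37 in SKO, so the SKO list was the shallowest, and the part of depth in these shares was not tested. The lowest ChIP pileup in the whole WT list was 7.

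**Figure D1:**
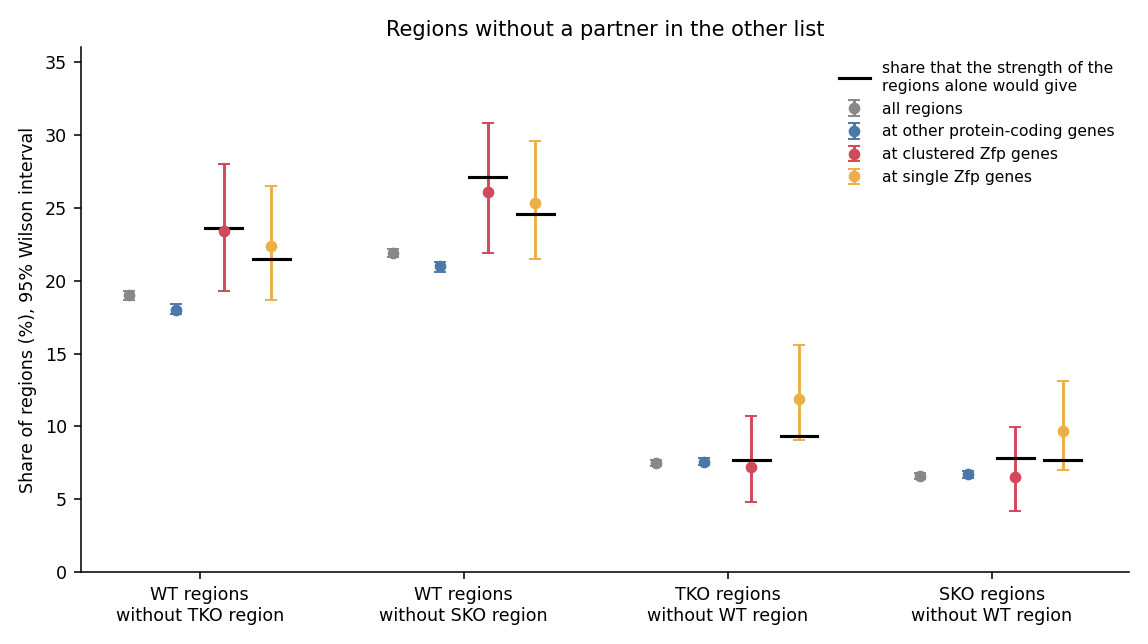
Share of regions with no overlapping region in the other list (y axis, percent, with 95% Wilson intervals) for all regions, regions at other protein-coding genes, and regions at clustered and single Zfp genes, in 4 comparisons (x axis). Black bars mark the share that the strength of the regions alone would give, and 23.4% of clustered and 22.4% of single WT regions were missing from TKO.

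The missing regions were weak. Those missing from TKO had a median fold of 4.83 (2.33 to 13.7) and a median pileup of 18 fragments (7 to 47), and those missing from SKO 4.73 (2.33 to 15.1). Above the median strength of the WT list, 3 of 365 Zfp regions had no TKO partner (0.822%, against 0.357% of all such WT regions) and 1 of 365 had no SKO partner (0.274%, against 0.512%). In the strongest of the 10 bins 0 of 83 were missing from either, which allows a share of up to 3.61%. In the weakest of 5 bins of equal size, 121 of 199 (60.8%) were missing from TKO and 137 (68.8%) from SKO, against 62.8% and 69.5% of all WT regions in that bin.

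Both knockouts together kept 551 of the 806 WT regions (68.4%). A further 71 were in TKO alone, 48 in SKO alone and 136 (16.9%) in neither, against 73.1%, 7.93%, 5.01% and 14.0% of all WT regions. By gene, 137 of the 300 Zfp genes with a WT region had none missing in either knockout, while 21 had all of theirs missing from TKO, 31 from SKO and 16 from both. Those 16 genes had a median of 1 WT region and at most 3, and 89 Zfp genes had only 1. Such gene counts were not made for other genes, so they describe the Zfp genes without a comparison.

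**Figure D2:**
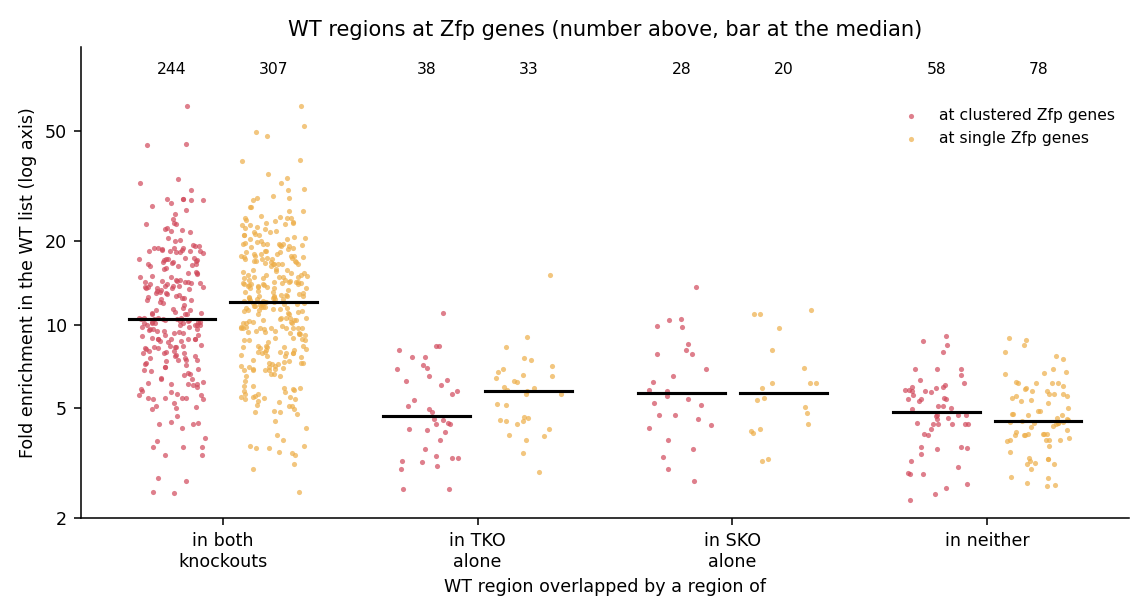
Fold enrichment in the WT list (y axis, log scale) of each WT region at clustered and single Zfp genes, by the knockout lists that hold an overlapping region (x axis), with numbers above and a bar at the median. Regions found in both knockouts had medians of 10.5 (clustered) and 12.1 (single), and those in neither had 4.85 and 4.50.

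The strongest WT regions missing from TKO all had an SKO partner. Zfp72 led with a fold of 13.7 and a pileup of 45 (chr13:74389812-74390161, inside the gene and 829 bp from its start), and SKO had 10.2 there. Zfp423, a transcription factor of neural and fat cell development, followed with 11.3 inside the gene and 9.93 in SKO (chr8:87862384-87862746). Zfp69 and Zfp704 read 10.9 each, with 8.02 and 6.34 in SKO. Zfp993 (10.5) and Zfp180 (10.4), both clustered, had 7.51 and 5.91. The rule ranks regions by WT fold, so these folds are a description.

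Regions missing from SKO were led by another site inside Zfp704, with a fold of 15.1 and a pileup of 66 in WT and 6.47 in TKO (chr3:9448533-9448958). The region inside Zfp287, a clustered gene, read 11.0 in WT and 9.93 in TKO, and that 9.99 kb from Zfp536 read 9.02 and 10.0. The other regions that the rule takes here, at Zfp383 (9.12), Zfp407 (8.91) and Zfp521 (8.78), were missing from TKO too. Of the Zfp704 regions, those with WT folds of 15.7 and 14.3 were in all 3 lists.

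Regions found in a knockout and not in WT were fewer and weak. At Zfp genes 68 of 689 TKO regions were absent from WT, 9.87% (7.86 to 12.3), against 7.49% of all TKO regions and 8.61% from strength. Of SKO regions 54 of 653 were absent, 8.27% (6.39 to 10.6), against 6.59% and 7.76%. Clustered genes had 22 of 304 such TKO regions (7.24%) and single genes 46 of 385 (11.9%), a difference of −4.71 points (−9.06 to −0.203). Strength gave 7.71% and 9.32%, which differ in the same direction. That interval included 0 under all but 1 of the 8 other settings tried. The 1 setting, the strongest summit alone, left the values unchanged. In SKO the shares were 6.53% and 9.67% (−3.14 points, −7.32 to 1.20), with 7.85% and 7.69% from strength. SKO had a partner for 19 of the 68 TKO regions (27.9%), against 28.0% of all TKO regions absent from WT.

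The strongest TKO region absent from WT lay inside Zfp820 on chromosome 17, with a fold of 8.31 and a pileup of 23, and SKO had 7.01 there (chr17:21838594-21838800). The next lay 6.80 kb from Zfp143 (8.29), which encodes a factor that binds promoters together with CTCF, and it was not in SKO. Those at Zfp975 (7.81), Zfp41 (7.18), Zfp318 (7.10) and Zfp91 (7.08) had no SKO partner either. The strongest SKO region absent from WT lay inside Zfp638 (8.45, with 4.26 in TKO), 1.88 kb from its start and apart from the promoter region shown above. Zfp619 (8.02), Zfp469 (7.29), Zfp24 (7.18) and Zfp644 (7.13) followed, with TKO partners at Zfp24 (2.65) and Zfp644 (5.32).

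Between the knockouts, 119 of 689 TKO regions (17.3%, 14.6 to 20.3) were missing from SKO, against 14.5% of all TKO regions and 16.1% from strength. In the other direction 81 of 653 SKO regions (12.4%, 10.1 to 15.2) were missing from TKO, against 10.4% and 12.1%. Clustered genes gave 17.8% and 13.7% in these comparisons (15.1% and 12.3% from strength), and single genes 16.9% and 11.3% (17.0% and 11.9%).

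CTCF summits were densest at the start, at Zfp genes and at other genes. In WT, clustered genes had 13.7 summits per 100 kb within 1 kb of the start (95% Poisson interval 10.2 to 18.1), single genes 9.92 (6.35 to 14.8) and other genes 11.0. In the last of 5 equal parts of the gene body clustered genes had 2.33 (1.35 to 3.72) and single genes 4.73 (3.35 to 6.50). In the 1 to 10 kb downstream of the end the density was 6.47, 6.80 and 6.08 at clustered, single and other genes.

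**Figure D3:**
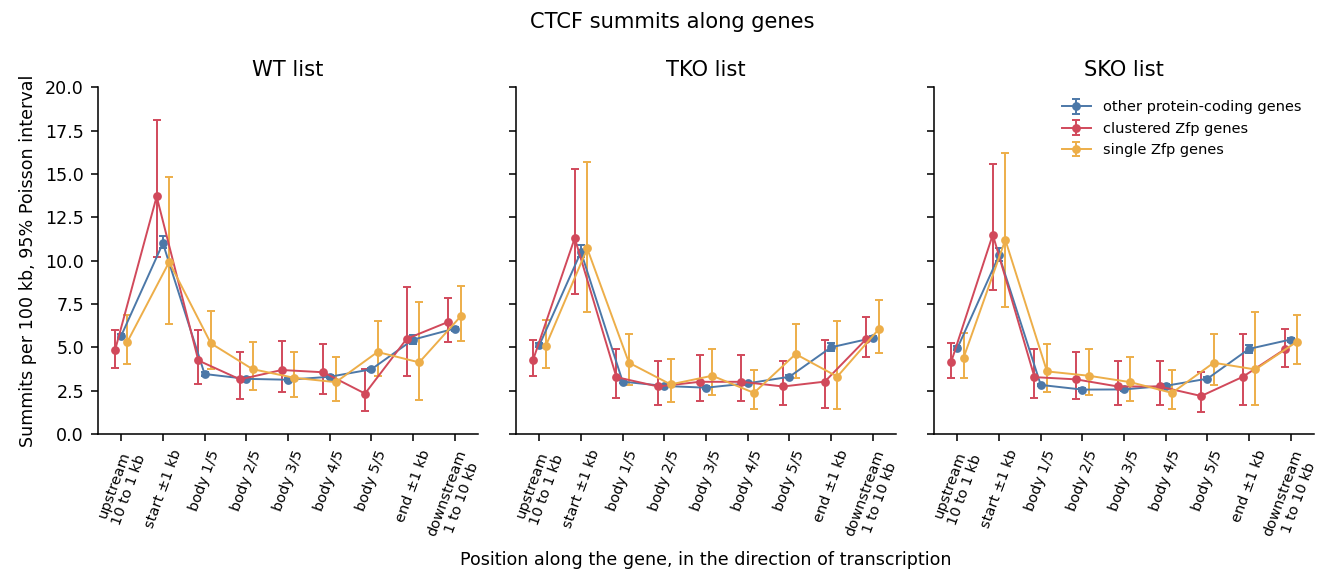
CTCF summits per 100 kb (y axis, with 95% Poisson intervals) in 9 areas along genes with an annotated start (x axis, in the direction of transcription), for clustered Zfp, single Zfp and other protein-coding genes in each list. All groups peak at the start, at 13.7, 9.92 and 11.0 in WT.

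The share of starts with CTCF differed more between the lists at clustered genes than at single or other genes, within overlapping intervals. In WT 57 of 182 clustered genes with an annotated start had a summit within 1 kb of it (31.3%, 25.0 to 38.4), against 27 of 121 single genes (22.3%, 15.8 to 30.5) and 21.0% of other genes. The clustered number was 49 (26.9%) in TKO and 43 (23.6%, 18.0 to 30.3) in SKO. Single genes numbered 28 in TKO and 27 in SKO, with turnover beneath these counts, and other genes read 20.0% and 19.6%.

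**Figure D4:**
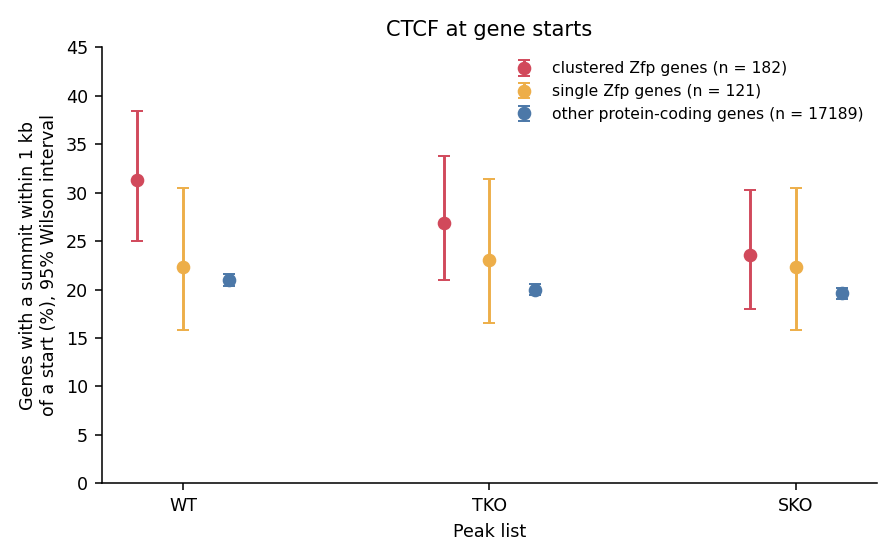
Share of genes with a CTCF summit within 1 kb of an annotated start (y axis, percent, with 95% Wilson intervals) in the WT, TKO and SKO lists (x axis). Clustered Zfp genes read 31.3%, 26.9% and 23.6%, and other protein-coding genes 21.0%, 20.0% and 19.6%.

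Of the 58 WT regions at clustered starts, 12 were missing from TKO (20.7%) and 15 from SKO (25.9%, 16.3 to 38.4), with 28.1% and 31.8% from strength. Of the 31 at single starts, 4 were missing from TKO (12.9%) and 6 from SKO (19.4%), with 29.6% and 33.6% from strength. At starts of other genes the shares were 17.4% and 20.4%, with 22.4% and 25.5%, so the shares lay below those from strength at all 3 kinds of start. Regions in the other direction were few, as 1 of 44 SKO regions at clustered starts was absent from WT (2.27%, 0.402 to 11.8), against 7 of 32 at single starts (21.9%, 11.0 to 38.8) and 15.0% at starts of other genes. Strength gave 9.53%, 11.8% and 9.76%. The 1 clustered start was that of Zfp667 (fold 3.93), and the single ones included Zfp207 (5.73), a spindle protein gene, and Zfp800 (5.62).

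The clustered starts missing from both knockouts were at Zfp672, Zfp456, Zfp81, Zfp101, Zfp777, Zfp420 and Zfp260. Zfp456 was the strongest of these, with a WT fold of 6.90 and a pileup of 18, and Zfp260 the weakest, with 2.58 and 20. Another 8 clustered starts were in TKO but not in SKO, namely Zfp712, Zfp229, Zfp995, Zfp947, Zfp109, Zfp61, Zfp771 and Zfp688. Zfp61, 48 bp from its start, read 4.52 in WT and 7.51 in TKO, and Zfp688 read 6.98 and 4.37. Strong clustered starts were in every list, such as Zfp619 at 30.5, 28.2 and 15.0 and Zfp282 at 23.1, 21.8 and 17.7 in WT, TKO and SKO. The 15 clustered start regions missing from SKO had WT folds of 6.98 or less. Another 5, at Zfp72, Zfp738, Zfp746, Zfp78 and Zfp975, were missing from TKO and present in SKO, and Zfp72 (13.7) was the strongest of these.

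The space between neighbouring Zfp genes held CTCF about as often as that between other genes. In WT, long gaps and gaps where genes ran toward each other held it more often. In WT 68 of 125 gaps of up to 100 kb between neighbouring Zfp genes held a summit (54.4%, 45.7 to 62.9), against 47.9% of gaps between other genes and 54.9% of gaps with a Zfp gene on 1 side. The figure was 61 in TKO and 54 in SKO (43.2%, 34.8 to 52.0), against 45.6% and 44.7% elsewhere. In the 27 gaps of 30 to 100 kb, 26 held a summit in WT (96.3%, 81.7 to 99.3), against 75.2% elsewhere. TKO had 23 (85.2%, 67.5 to 94.1) and SKO 19 (70.4%, 51.5 to 84.1), against 72.7% and 71.3% elsewhere. Gaps of up to 10 kb went the other way in WT, at 19.1% (10.4 to 32.5) against 26.2%. Tandem gaps read 47.1% against 47.4%, and gaps between genes that run apart 53.3% against 55.0%. Where both genes ran toward the gap, 12 of 15 held a summit in WT and 8 in each knockout, against 38.7% of such gaps elsewhere in WT, whose median length was 6.93 kb against 16.0 kb.

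Of the 124 WT regions in gaps between Zfp genes, 35 were missing from TKO (28.2%, 21.1 to 36.7), with 20.8% from strength, and 35 from SKO (28.2%), with 24.1% from strength. In gaps between other genes the shares were 15.1% and 18.1%, with 16.3% and 18.9% from strength. The TKO interval lay just above the share from strength. These regions share few neighbourhoods and are not independent, and the gaps were examined after other values had been seen.

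The 5 clusters with most genes held between 10 and 32 WT regions. The largest, Zfp84 to Zfp146 on chromosome 7 (chr7:29768552-30169775, 15 genes), had 32 WT, 22 TKO and 22 SKO regions. From each knockout 11 of its WT regions were missing (34.4%), against 19.0% (TKO) and 21.9% (SKO) of all WT regions. The share from strength was not worked out for separate clusters. The 14 genes from Zfp712 to Zfp748 on chromosome 13 had 14, 12 and 10 regions, and 2 and 5 of the WT regions were missing from TKO and SKO. The 13 genes from Zfp677 to Zfp943 on chromosome 17 had 19, 19 and 14, with 2 and 5 missing. Zfp180 to Zfp94 on chromosome 7 had 10, 8 and 7, and Zfp978 to Zfp933 on chromosome 4 had 16, 14 and 12. Their SKO counts were the lowest or tied for it.

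The clusters with most WT regions also included Zfp992 to Zfp993 on chromosome 4 (21, 15 and 16 regions), Zfp786 to Zfp746 on chromosome 6 (19, 16 and 15), and Zfp553 to Zfp689 on chromosome 7 (18, 16 and 15). Zfp786 to Zfp746 holds the pair of promoters shown above. Fewer regions than in WT were found in TKO in 28 of the 52 clusters and in SKO in 31, and more in 2 and 4. The whole lists were shorter as well, with 71075 regions in WT, 62238 in TKO and 59372 in SKO, so the direction is not particular to clusters. As examples chosen after their values were seen, Zfp868 to Zfp866 on chromosome 8 had 6, 2 and 3 regions, Zfp787 to Zfp28 on chromosome 7 had 13, 13 and 14, and Zfp60 to Zfp850 on chromosome 7 had 4, 6 and 5.

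**Figure D5:**
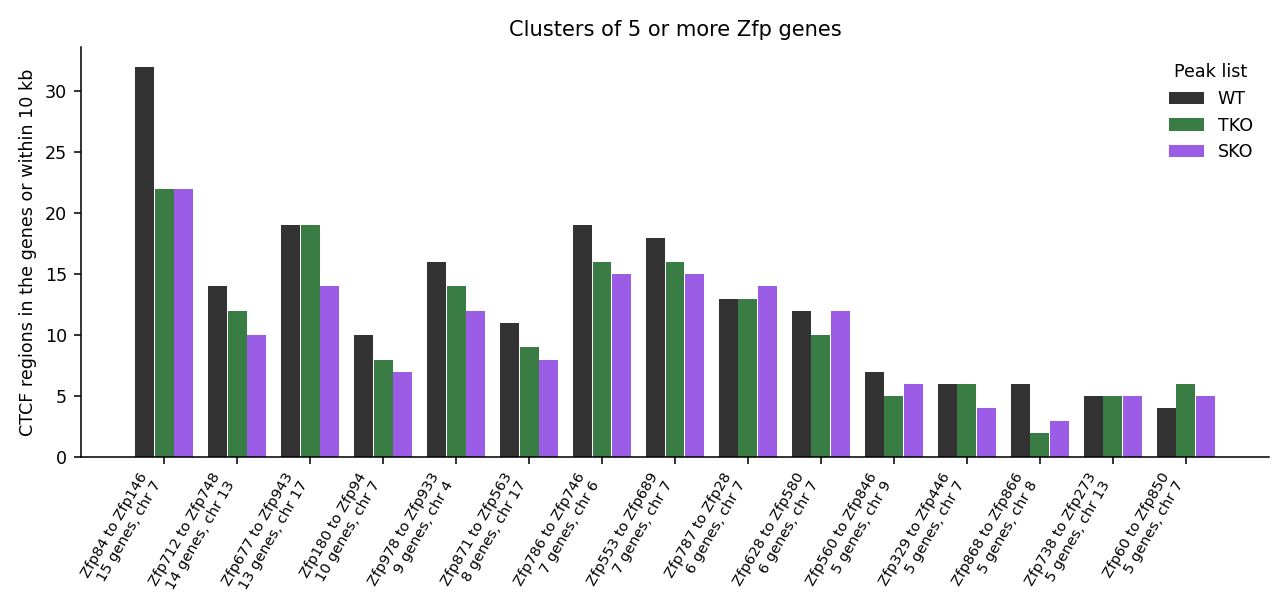
Number of CTCF regions in or within 10 kb of the genes (y axis) of each of the 15 clusters of 5 or more Zfp genes (x axis), as bars for the WT, TKO and SKO lists. The cluster from Zfp84 to Zfp146 has 32 regions in WT and 22 in each knockout, and that from Zfp60 to Zfp850 has 4, 6 and 5.

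Among single genes, Zfp469 and Zfp536 had 18 and 17 WT regions, with 16 and 14 in TKO and 14 and 12 in SKO. Zfp64 had 16, 11 and 12 regions, and Zfp516, a gene of fat cell development, had 12, 10 and 10. Zfp148, which encodes a factor of GC-rich promoters, had 13 regions in WT, 6 in TKO and 4 in SKO. It lacked a partner for 8 and 9 of the WT regions, whose WT folds were 3.28 to 5.33 and 3.28 to 7.60. Zfp609 had 12, 6 and 5, with 6 and 7 missing, of WT folds from 3.21 to 6.23. The median WT fold was 4.74 at Zfp148 and 5.88 at Zfp609, against 10.0 over all WT regions. Both were named as genes with most changes, and 19.0% and 21.9% of all WT regions were missing from TKO and SKO. Zfp423 had 12, 12 and 9. Its TKO count hides turnover, since 3 WT regions were missing from TKO and 3 TKO regions absent from WT.

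Among clustered genes Zfp993 had the most, with 18 WT, 12 TKO and 14 SKO regions over a gene of 479 kb. Zfp978 had 10, 9 and 7, and its strongest region read 44.6 in WT. Zfp13 had 9, 8 and 8, with 0 WT regions missing from TKO and 1 from SKO. Zfp568 and Zfp647 had 9 WT regions each, with 6 and 7 in TKO and 5 each in SKO. Zfp213 had 6, 5 and 4, and is 1 of 7 clustered genes tied at 6 WT regions, of which Zfp580 (6, 5 and 7) and Zfp764 (6, 6 and 7) had most in SKO.

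The 6 genes that act on imprints and retroviruses had 17 WT, 11 TKO and 9 SKO regions, with 6 WT regions missing from TKO (35.3%, 17.3 to 58.7) and 7 from SKO (41.2%, 21.6 to 64.0). Over all WT regions the shares were 19.0% and 21.9%, and strength gave 5.19 and 5.89 regions for this group. The intervals hold the values from strength, here and in the other function groups below. Zfp57, the keeper of methylation at imprinted loci, had 2 WT regions and kept the strong one, at a fold of 14.5 in WT, 15.2 in TKO and 19.3 in SKO. Zfp568, a KRAB protein that silences a placental Igf2 transcript, lacked 3 of its 9 WT regions in each knockout, and its strongest, 0.226 kb outside the gene, read 18.4, 17.2 and 21.2. Zfp932 had 3, 2 and 2. Zfp708 had 2 weak WT regions, 1 in TKO and 0 in SKO. Zfp445, another imprint factor, had 1 region in each list, at 7.93, 10.6 and 5.05. Zfp819 had 0.

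The 6 genes of the early embryo and stem cells had 13, 9 and 9 regions, with 5 and 6 WT regions missing, against 3.95 and 4.54 from strength. At Zfp462 all 3 WT regions, of folds up to 5.78, were missing from both knockouts. Zfp281, a pluripotency factor, had 2, 2 and 1, and the region at its start read 6.65, 3.13 and 5.11. Zfp296 had 2, 2 and 1, Zfp217 had 4, 3 and 4, and Zfp207 had 2, 1 and 2. Zfp352, a gene of the early embryo, had 0. Zfp143 had 3 WT regions, all of which were in both knockouts, and 5 and 4 regions in TKO and SKO.

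The 9 developmental genes had 61, 54 and 47 regions, with 13 WT regions missing from TKO and 18 from SKO, against 12.03 and 13.70 from strength. Zfp703 and Zfp503, a related pair, kept all of theirs, 4 and 1, and the strongest read 26.6, 16.9 and 19.8 at Zfp703 and 23.1, 22.2 and 22.0 at Zfp503. Zfp521, a relative of Zfp423, had 6, 4 and 3. Zfp335, a gene of neural progenitors, had 6, 7 and 6, Zfp488 had 3, 2 and 2, and Zfp366 had 0. The 8 genes for proteins of RNA, ribosomes or ubiquitin had 25 regions in each list, with 5 and 4 WT regions missing, against 4.33 and 4.98 from strength. Zfp36, which encodes an mRNA decay factor, had the same 3 regions in all lists, and its strongest read 20.7, 21.7 and 24.7. Zfp593 had 2 regions in WT, 3 in TKO and 4 in SKO, and Zfp638 had 7, 5 and 6.

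Other gene families are given only for scale, each with the share from strength in brackets. At 35 Zbtb genes, 16.0% of WT regions (16.7%) had no TKO partner and 19.8% (19.3%) no SKO partner. At 11 Zscan genes the shares were 17.6% (20.5%) and 23.5% (23.5%). At 11 Zkscan genes 0 of 20 WT regions were missing from TKO (14.3%; Wilson upper bound 16.1%) and 3 from SKO, 15.0% (17.1%). At 17 Klf genes the shares were 25.9% (24.8%) and 42.6% (28.4%), or 14 and 23 of 54 regions. Olfactory receptor genes gave 24.9% (21.3%) and 27.1% (24.6%). At 10 genes for Trim28 and other corepressors of KRAB proteins, 6 and 8 of 49 WT regions were missing, 12.2% (17.2%) and 16.3% (20.1%).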

How the data were processed

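Per the labels, CTCF ChIP-seq was done in WT, TKO and SKO cells. The submitters' processing notes name MACS2 2.1.2, deepTools 3.5.0, Bowtie2 2.3.4, bedtools 2.25.0, FastQC 0.11.7, SAMtools 1.9 and the mm10 build; commands were not given in the sources used here. Each deposited list holds peaks of 3 pooled replicates with a score, a fold enrichment (ratio of ChIP to background), a −log10 p, a −log10 q and a summit offset, as the authors deposited them. The score and offset served for placing and checking only.

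Rows with the same interval were joined, with the summit of highest −log10 q as its value (73125 rows to 71075 WT regions). Regions overlapping by 1 bp or more were partners. Bedtools 2.31.1 gave the same counts. Fold and −log10 p were solved for the pileup, which was whole in 100% of rows within a relative error of 0.0001. Read totals of the samples were not used. Intervals (95%) treat the regions, summits, genes or gaps counted as independent, and so cover counting error only. Regions of the same cluster share their neighbourhood and are not replicates. PCR fragments without molecular identifiers are not independent either. Expected shares sum the missing share of each member's bin of the whole list (10 bins by −log10 q). The overlap, placing and pileup steps were tested on simulated data. Genes and promoters came from RefSeq GRCm38.p6, without exons. Proteins and genome sequence were not used here, so the planned count of fingers was not made.

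Named items follow a rule: the 6 highest WT folds, the 6 highest missing or extra regions per knockout, the 6 genes with most WT regions per kind, the 5 largest and 5 richest clusters, the 6 genes with most changes, and fixed genes of known function (30 of 31 matched). Single regions and starts named beyond it were chosen after their values were seen. Members and lists were chosen with earlier results of these data known. Alternatives were other windows, symbols, cluster distances, summits, partners, thresholds and bins. Python 3.11.15, pandas 2.3.3, NumPy 2.4.6 and SciPy 1.17.1 were used.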

Additional observations from a re-analysis of the deposited data

How the results depend on the processing

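Of 70 values recomputed under other settings, 63 stayed within their 95% interval and 7 moved. No difference whose reported interval left out 0 changed sign. The clustered minus single differences for WT regions missing from TKO (0.995) and SKO (0.744), whose intervals held 0, did change sign. They were −1.56 and −2.26 with gene bodies alone, and −0.896 and −0.449 with clusters within 200 kb. Among the 63 are 10 values with the strongest summit alone, a setting that changed none of them. With regions of −log10 q of at least 5, WT regions at Zfp genes were missing from TKO in 18.2% and from SKO in 20.4%, TKO and SKO regions were absent from WT in 6.14% and 4.33%, TKO regions were missing from SKO in 13.7% and SKO regions from TKO in 8.50%. This setting takes weak regions out of the counted list alone. With 50 kb either side of the gene, WT regions were missing from TKO in 20.0%, and this setting adds regions farther from the genes. The clustered minus single difference for TKO regions absent from WT ran from −5.24 to −1.07 points. Its interval left out 0 as reported and with the strongest summit alone, which gave the same values, and not with the 7 other settings. For SKO regions absent from WT it left out 0 only at −log10 q of at least 5 (−3.76 points, −7.08 to −0.451). No paired analysis was possible because the replicates of each genotype were pooled before peaks were called, and for the same reason no replicate could be left out. The lowest pileups listed were 7 to 8 fragments, and the part of depth was not tested.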
